A study of Mus musculus with 7 samples.

Results

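The genes described here are the ligands, receptors and immediate signalling components of the 2 colony-stimulating factors that act on macrophages: Csf1, Csf1r, Csf2, Csf2ra, Csf2rb, Csf2rb2, Jak2, Stat5a, Stat5b and Cish. These 10 genes were taken by name from a table of 27179 genes, and 9 of them had enough reads to be tested. RNA was sequenced from alveolar macrophages, which live in the airspaces of the lung and take up particles and surfactant. They were isolated by flow cytometry from mouse bone marrow chimeras. Animals received Suz12 cKO marrow (3 libraries) or, as controls, wild type (WT) marrow (4 libraries). In both arms the recipients were lethally irradiated C57BL/6-Ly5.1 mice, and 90% of the graft was Ly5.2 test marrow while the remaining 10% was WT Ly5.1 competitor marrow. Not given in the sources used here are the Cre line, the deleted exons, the age of the animals and the gating of competitor cells.

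M-CSF, the product of Csf1, signals through the receptor tyrosine kinase encoded by Csf1r and keeps most tissue macrophages alive. GM-CSF, the product of Csf2, is made in the lung mainly by alveolar epithelium and is required for alveolar macrophages to develop and to clear surfactant. It binds the alpha chain Csf2ra, which pairs with the common beta chain Csf2rb; the kinase Jak2 then phosphorylates Stat5a and Stat5b, and these switch on Cish, a feedback inhibitor of the same receptors. Suz12 is a core subunit of polycomb repressive complex 2, which methylates histone H3 at lysine 27 and keeps developmental genes silent.

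The libraries held between 48104653 and 79281431 counts. Suz12 itself checked the labels: its CPM, a count scaled to library size with TMM factors, was 22.1, 23.6 and 15.1 in Suz12 cKO, against 56.5, 56.3, 73.9 and 68.9 in WT, a log2 fold change of -1.65 (SE 0.18, edgeR adjusted p = 0.00134). The 12 alveolar macrophage markers summed to between 28790 and 32800 CPM in Suz12 cKO and between 24020 and 27460 CPM in WT. Chil3 lay between 17770 and 20360 CPM in Suz12 cKO and between 15810 and 18510 CPM in WT. Of the 12 markers, 6 were higher in Suz12 cKO at an edgeR adjusted p under 0.05 and 0 were lower. Marco was low, between 11.2 and 22.5 CPM in Suz12 cKO and between 1.53 and 6.24 CPM in WT. Siglecf, which did not pass, was lower in every Suz12 cKO library than in every WT library. Suz12 cKO replicates 1 and 2 and WT replicate 2 also carried RNA of blood and lung tissue: haemoglobin genes summed to 147, 107 and 40.7 CPM in these 3 libraries and to between 1.92 and 3.76 CPM in the other 4. Sftpc, which encodes a surfactant protein, reached 4.53, 9.07 and 10.6 CPM there and 0.0412 CPM at most elsewhere.

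Of the 9 genes tested, Csf1 and Cish were higher in Suz12 cKO at an adjusted p under 0.05, and none was lower. The ligand gene Csf1 was 3.58-fold higher and the feedback gene Cish 2.86-fold higher. The receptor genes, Jak2 and the 2 STAT5 genes were not called. Csf1 encodes the ligand of Csf1r, whereas Cish was described above in the GM-CSF arm, whose ligand gene Csf2 was not tested. Over all 14436 genes tested, 10.3% were called, with 6.28% of the genes tested higher and 4.02% lower. The count of 2 of 9 is set beside that background as a description, since the genes were chosen with earlier results known. The median log2 fold change of the 9 genes was 0.10, and that of all genes tested was 0.00.

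**Figure D1:**
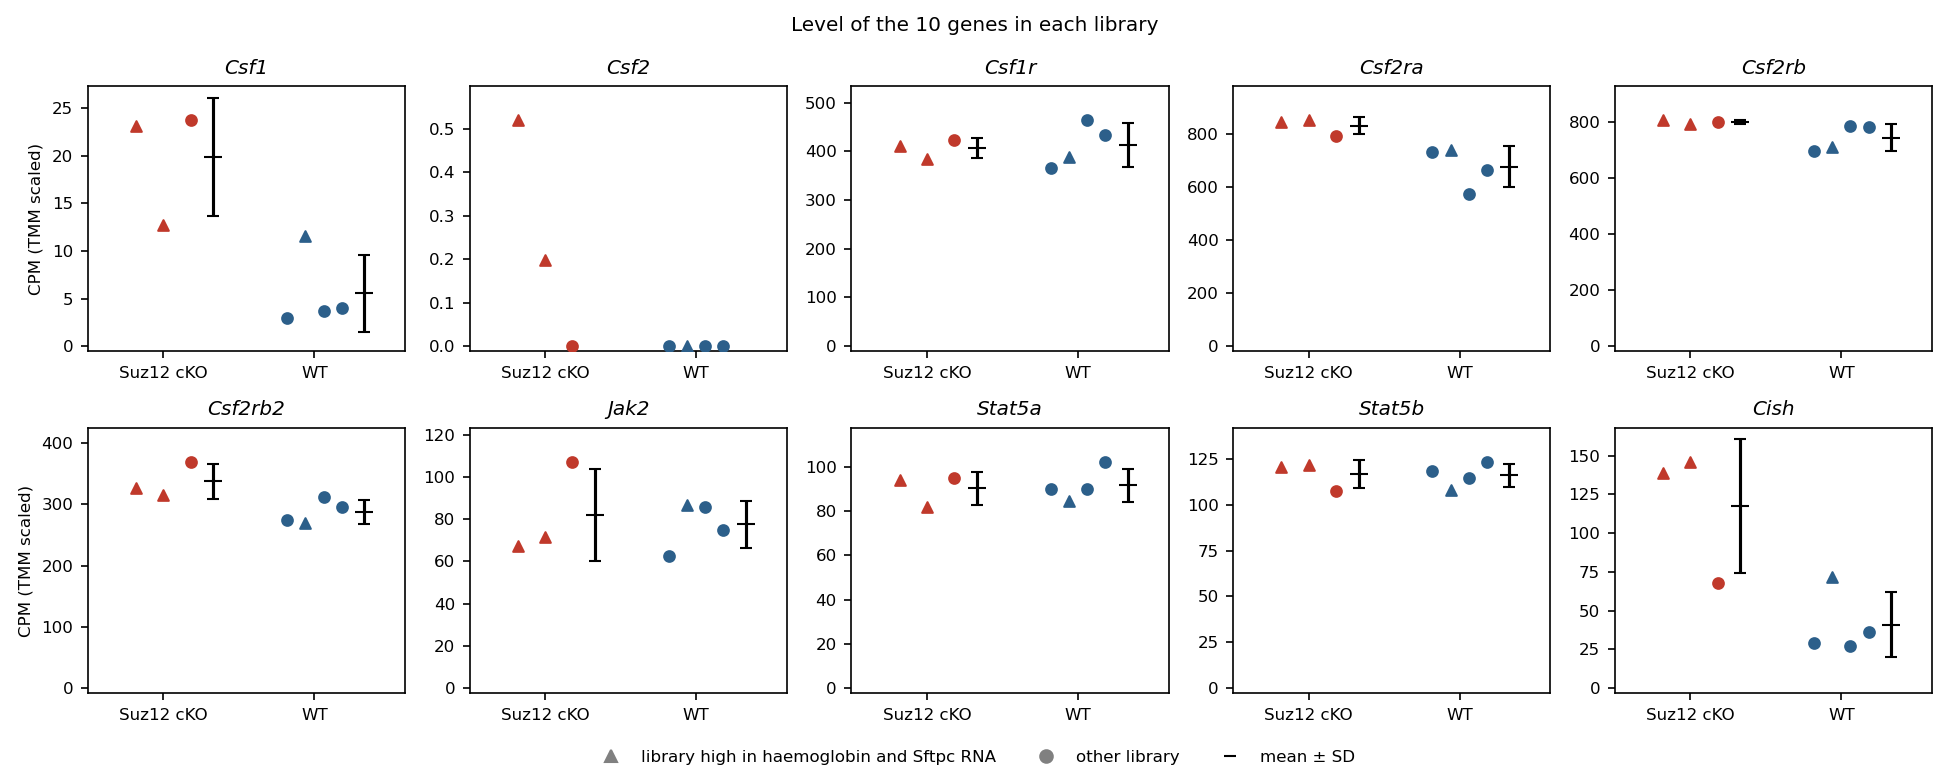
Level of each of the 10 genes in each library, in CPM after TMM scaling, with Suz12 cKO left of WT; triangles are the 3 libraries high in haemoglobin and Sftpc RNA, and bars are mean ± SD, left out for Csf2. All 3 Suz12 cKO points for Csf1 lie above the WT points, Cish overlaps in 1 pair of libraries, the receptor and STAT5 genes lie close together, and Csf2 is at 0 in 5 of 7 libraries.

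The promoters of the called genes Csf1 and Cish and of the near-silent ligand gene Csf2 are shown because the data turn on these 3. Each run, taken from RefSeq on GRCm38.p6, covers 250 bases before and 30 bases after the annotated start, read 5′ to 3′ on the strand of the gene. For Cish (chr9:107296409-107296688, plus strand) the capitals mark matches to the STAT motif TTCNNNGAA. For Csf1 (chr3:107760440-107760719, minus strand) and Csf2 (chr11:54249870-54250149, minus strand) the capitals mark CG dinucleotides.
Cish: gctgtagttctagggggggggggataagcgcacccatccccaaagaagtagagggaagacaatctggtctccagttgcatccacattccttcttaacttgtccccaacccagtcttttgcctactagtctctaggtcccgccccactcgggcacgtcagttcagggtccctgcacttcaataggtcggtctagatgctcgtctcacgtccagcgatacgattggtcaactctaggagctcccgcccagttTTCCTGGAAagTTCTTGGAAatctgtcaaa
Csf1: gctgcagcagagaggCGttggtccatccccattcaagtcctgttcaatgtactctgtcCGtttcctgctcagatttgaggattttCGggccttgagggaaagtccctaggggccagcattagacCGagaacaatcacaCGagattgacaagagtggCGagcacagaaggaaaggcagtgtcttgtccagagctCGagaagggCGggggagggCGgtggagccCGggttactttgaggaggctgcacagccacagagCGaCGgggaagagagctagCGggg
Csf2: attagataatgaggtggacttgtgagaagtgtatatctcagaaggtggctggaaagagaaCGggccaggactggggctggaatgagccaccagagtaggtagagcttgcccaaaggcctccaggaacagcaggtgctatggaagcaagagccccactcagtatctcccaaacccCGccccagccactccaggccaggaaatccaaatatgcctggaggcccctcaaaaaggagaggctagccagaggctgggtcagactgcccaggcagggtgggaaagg

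The STAT motif, searched as TTCNNNGAA, which reads the same on both strands, was found 2 times in the Cish window, at bases 1 to 9 and 12 to 20 counted from the start. Of 32851 RefSeq promoter windows of 300 bases, 8.3% held the motif and 0.457% held it at least 2 times. Csf2rb2 had 1 match, at bases -15 to -7, and the other 6 genes with a window had none. The AP1 motif TGANTCA and the PU1 motif GAGGAA were searched in the same windows. AP1 had no match in these genes, and 7.81% of all windows held it. PU1 matched 2 times in Csf2ra, 2 times in Csf2rb2 and 1 time in a Stat5a window, and 28.3% of all windows held it. A match is a description of the letters and says nothing of binding in these cells. Promoters were found for 8 of the 10 genes; Csf1r and Csf2rb had no entry. The full window of Csf1 held 16 CG dinucleotides, that of Cish 11 and that of Csf2 3, against a median of 7 over all windows. The count of Csf1 was above that of 67% of windows. Genes not called spanned a wider range, from 3 for Csf2rb2 to 44 for Jak2 and 50 in the richer Stat5b window.

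Csf1 (Entrez 12977, chromosome 3, 107741048 to 107760469 in GRCm38) encodes M-CSF. It was at 23.1, 12.7 and 23.8 CPM in Suz12 cKO, against 2.97, 11.6, 3.68 and 3.98 CPM in WT. Every Suz12 cKO library lay above every WT library, but Suz12 cKO replicate 2 and WT replicate 2 nearly met. The means were 19.9 ± 6.18 CPM in Suz12 cKO and 5.55 ± 4.04 CPM in WT (SD, n = 3 and n = 4), for a log2 fold change of 1.84 (SE 0.47, 95% confidence interval 0.77 to 2.91, edgeR adjusted p = 0.0418). In bulk RNA, more transcript in each macrophage and a larger number of cells of a type that makes it cannot be told apart.

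Fibroblasts and other stromal cells are known sources of M-CSF, so their markers are given beside Csf1. WT replicate 2, the highest WT library for Csf1, also held the most Col3a1 (8.16 CPM) and Dcn (6.35 CPM), which encode matrix proteins of fibroblasts. The part of that RNA in its Csf1 level was not tested. Suz12 cKO replicate 3, the highest library of all for Csf1, had no count of Sftpc, Col1a1, Col1a2, Col3a1, Dcn or Lum. Of the 7 fibroblast markers, 1 of 4 tested was called, Pdgfra, at 29.6, 37.0 and 33.6 CPM in Suz12 cKO, against 2.39, 1.30, 0.27 and 0 CPM in WT; the summed list was between 32.2 and 41.9 CPM in Suz12 cKO and between 0.0206 and 22.5 CPM in WT. Most of the sum in Suz12 cKO was Pdgfra; Col3a1 and Dcn, not called, had log2 fold changes of -1.33 and -1.43. Among the 4 libraries low in tissue RNA, 1 Suz12 cKO against 3 WT, the log2 fold change of Csf1 was 2.73 (edgeR adjusted p = 0.00301). Among the 3 libraries high in it, 2 Suz12 cKO against 1 WT, it was 0.63 (adjusted p = 0.371), and with a term for tissue RNA over all 7 it was 1.77 (adjusted p = 0.0226). In both subsets the lone library is assumed to vary like the others.

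The call for Csf1 depended on which libraries entered. It was kept without WT replicate 2, where the log2 fold change was 2.48 (edgeR adjusted p = 0.000905). It was lost without any one of the other 6 libraries, with log2 fold changes between 1.63 and 2.08 and adjusted p-values between 0.0631 and 0.133.

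**Figure D2:**
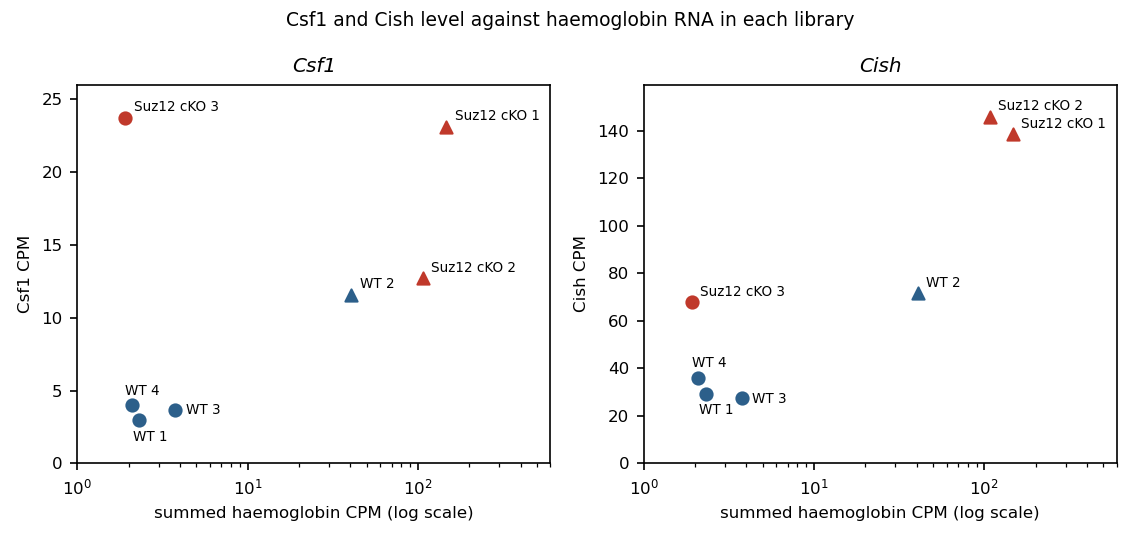
Csf1 (left) and Cish (right) in CPM against the summed haemoglobin CPM of the same library on a log axis, with Suz12 cKO in red, WT in blue and triangles for the 3 libraries high in tissue RNA. Suz12 cKO replicate 3, low in haemoglobin, has the highest Csf1 (23.8 CPM), whereas its Cish (68.0 CPM) lies below that of WT replicate 2 (71.6 CPM).

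Csf2 (Entrez 12981, chromosome 11, 54247270 to 54249899), which encodes GM-CSF, was close to absent. It had 33, 13 and 0 counts in Suz12 cKO and no count in any WT library, too few to pass the count filter. Pooled over the libraries of a group, that is 0.229 CPM in Suz12 cKO. The floor that 3 counts over the WT group would give is 0.0121 CPM. The pooled Suz12 cKO value was 19-fold this floor, which allows for counting error in WT but not in Suz12 cKO. With no count filter Csf2 entered the edgeR fit. The 2 members called there were Csf1 and Cish, and Csf2 was not called. The 2 libraries with counts were the Suz12 cKO libraries high in tissue RNA, and WT replicate 2, also high in it, had none. Suz12 cKO replicate 3 had none either, so the difference rests on 2 of 3 Suz12 cKO libraries.

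Alveolar epithelium and lymphoid cells, the known sources of GM-CSF in lung, left the following traces. The 9 epithelial markers, none of them called, summed to between 143 and 174 CPM in Suz12 cKO and between 140.4 and 157 CPM in WT, most of it Abca3. Sftpb, a more restricted marker, was at 3.36, 2.54 and 0 CPM in Suz12 cKO, against 0.199, 2.04, 0 and 0 CPM in WT. The summed markers of T, NK and innate lymphoid cells lay between 18.2 and 36.8 CPM in Suz12 cKO and between 9.77 and 27.4 CPM in WT, with Gata3 the 1 of 7 tested that was called. The 2 libraries with Csf2 counts had 19.2 and 18.2 CPM; the highest sum belonged to Suz12 cKO replicate 3, which had no Csf2 count, and 26.2 CPM of it was Il7r. Cd3e was at 0.39, 0.67 and 0 CPM in Suz12 cKO, against 0, 0, 0.31 and 0 CPM in WT. Cd3d and Ncr1 had counts in Suz12 cKO replicate 2 alone. Whether such cells supplied the Csf2 counts was not tested.

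The receptor genes were among the most abundant transcripts of these cells. Scaled to gene length as RPKM (CPM per kilobase of exon), Csf2ra averaged 449.6 ± 17.3 in Suz12 cKO and 366 ± 41.8 in WT, which placed it at the 99.1 percentile of the genes tested. Csf2rb followed with 168 ± 1.39 RPKM in Suz12 cKO and 156 ± 9.88 in WT, then Csf1r with 105 ± 5.34 in Suz12 cKO and 106.5 ± 11.5 in WT. The order was the same in both genotypes down to Csf2rb2, at 73.0 ± 6.09 RPKM in Suz12 cKO and 62.3 ± 4.31 in WT, and the ranges of these 4 genes did not overlap in either group.

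Below the receptors the order differed. In Suz12 cKO, Cish came next at 54.4 ± 19.9 RPKM, above Stat5a at 23.2 ± 1.91, Stat5b at 21.4 ± 1.41, Jak2 at 16.3 ± 4.34 and Csf1 at 4.50 ± 1.40. In WT, Stat5a (23.6 ± 1.90), Stat5b (21.3 ± 1.18), Cish (19.0 ± 9.57) and Jak2 (15.4 ± 2.24) followed each other, each overlapping the next, with Csf1 at 1.26 ± 0.914. In Suz12 cKO, Stat5a overlapped Stat5b and Stat5b overlapped Jak2. Csf2 was lowest in both groups.

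Csf1r (Entrez 12978), the M-CSF receptor, was at 411, 384 and 424 CPM in Suz12 cKO, against 365, 388, 464 and 433 CPM in WT. The Suz12 cKO values fell inside the WT range. Its log2 fold change was -0.02 (SE 0.10), and the 95% confidence interval ran between -0.25 and 0.21 (edgeR adjusted p = 0.933). A difference beyond that interval was thus not seen at this depth, although its ligand gene was called higher.

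Csf2ra (chromosome 19, 61217191 to 61228461), which gives the GM-CSF receptor its specificity, was at 845, 854 and 795 CPM in Suz12 cKO, against 732, 739, 572 and 666 CPM in WT. The groups did not overlap, with means of 831 ± 31.9 CPM in Suz12 cKO and 678 ± 77.4 CPM in WT (SD, n = 3 and n = 4). A log2 fold change of 0.29 (SE 0.10, interval 0.07 to 0.52) was not called by edgeR (adjusted p = 0.104), and DESeq2 called it (adjusted p = 0.0189).

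Csf2rb (chromosome 15, 78325800 to 78351001), the beta chain shared by the receptors for GM-CSF, IL-3 and IL-5, was at 807, 794 and 799 CPM in Suz12 cKO, against 696, 712, 787 and 783 CPM in WT. Its neighbour Csf2rb2 (chromosome 15, 78282507 to 78305721), a beta chain that in mice serves the IL-3 receptor, was at 327, 316 and 369 CPM in Suz12 cKO, against 274, 269, 312 and 295 CPM in WT. For both genes each Suz12 cKO library lay above each WT library, by a small margin. The log2 fold changes were 0.10 (SE 0.08, adjusted p = 0.463) for Csf2rb and 0.23 (SE 0.10, adjusted p = 0.174) for Csf2rb2 in edgeR. Csf1, Csf2ra, Csf2rb and Csf2rb2 make 4 of 9 genes whose groups did not overlap upward, a pattern that 14.1% of all genes tested showed.

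The 2 beta chain genes are near copies, so part of their reads may have been assigned to either. Of the 85-base windows of their GENCODE M21 transcripts, the length of the reads, 429 of 4656 in Csf2rb2 (9.21%) and 429 of 4816 in Csf2rb (8.91%) occurred in both, and their coding sequences were 95.2% identical. The longest coding run shared by both is shown because reads within it cannot be placed in 1 gene. It lies in the last exon of each gene: at chr15:78284630-78284871 on the minus strand in Csf2rb2 (exon 14) and at chr15:78348577-78348818 on the plus strand in Csf2rb (exon 15).
Csf2rb2 and Csf2rb, 242 shared bases: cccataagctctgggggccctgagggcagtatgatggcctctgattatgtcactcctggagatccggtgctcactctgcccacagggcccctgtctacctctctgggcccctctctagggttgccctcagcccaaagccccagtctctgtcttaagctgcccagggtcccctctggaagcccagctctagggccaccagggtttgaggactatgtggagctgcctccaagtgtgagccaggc

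The ratio of Csf2rb2 to Csf2rb, each scaled to length, was 0.418, 0.411 and 0.477 in Suz12 cKO and 0.407, 0.389, 0.41 and 0.389 in WT. Each Suz12 cKO ratio was above each WT ratio. The difference of the mean log2 ratios was 0.12 (two-sided exact permutation p = 0.0571, the smallest that 3 against 4 libraries allow). Without Suz12 cKO replicate 3 the difference was 0.055. It did not pass with all libraries, and adjusted over the 4 ratios compared the exact permutation p was 0.228. Csf2ra relative to Csf1r, the balance of the GM-CSF and M-CSF receptors, had a mean log2 ratio of 2.10 ± 0.12 in Suz12 cKO and 1.78 ± 0.32 in WT, a difference of 0.32 (exact permutation p = 0.171). Without WT replicate 3 it was 0.18.

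Jak2 (chromosome 19, 29251803 to 29313095), the kinase bound to the beta chain, was at 67.4, 71.4 and 107 CPM in Suz12 cKO, against 62.7, 86.8, 85.8 and 74.9 CPM in WT. The groups overlapped widely, and the log2 fold change of 0.08 had an interval of -0.33 to 0.49 (edgeR adjusted p = 0.854). Its sign turned with the libraries, at 0.51 among the 4 libraries low in tissue RNA and -0.32 among the 3 high in it. Neither value was called.

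Stat5a (chromosome 11, 100859351 to 100885169) and the adjoining Stat5b (chromosome 11, 100780731 to 100859004) encode the transcription factors that carry the signal to the nucleus. Stat5a was at 94.0, 81.8 and 95.1 CPM in Suz12 cKO, against 90.1, 84.7, 89.9 and 102 CPM in WT. Stat5b was at 121, 121 and 108 CPM in Suz12 cKO, against 118, 108, 114 and 123 CPM in WT. Neither differed beyond the spread between libraries, with log2 fold changes of -0.02 (interval -0.25 to 0.20) and 0.01 (interval -0.20 to 0.21) in edgeR (adjusted p = 0.932 and 0.976). Their signs near 0 turned under several settings. These genes are also near copies, with 9.34% of the Stat5a windows of 85 bases found in Stat5b and 6.41% of the Stat5b windows found in Stat5a.

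**Figure D3:**
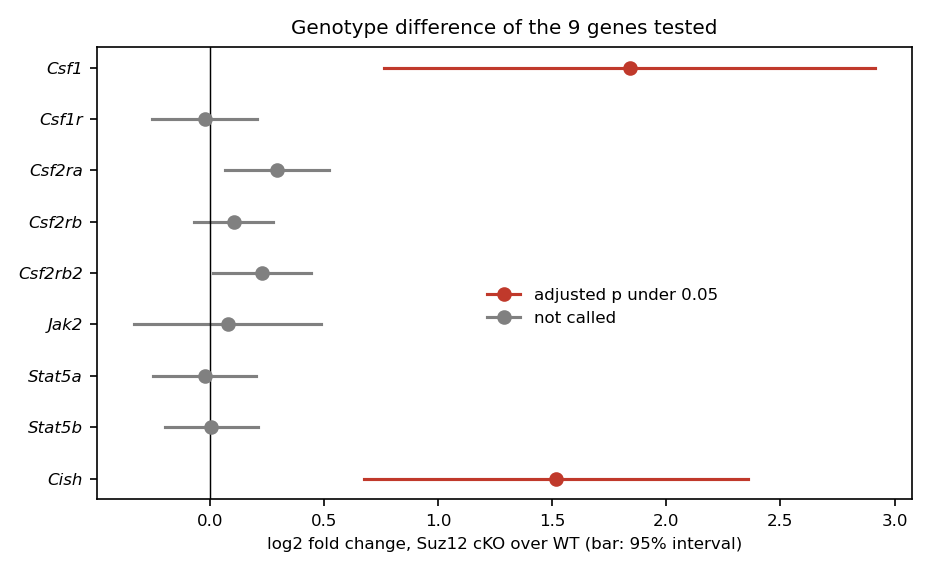
Log2 fold change of Suz12 cKO over WT for the 9 genes tested, with 95% confidence intervals from the edgeR fit. Csf1 (1.84) and Cish (1.52), in red, were called; the other 7 lie between -0.02 and 0.29.

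Cish (chromosome 9, 107296659 to 107302784), whose product blocks STAT5 docking on the receptors and which is itself a classical STAT5 target, was at 139, 146 and 68.0 CPM in Suz12 cKO. In WT it was at 29.4, 71.6, 27.3 and 36.0 CPM. The ranges overlapped, since Suz12 cKO replicate 3 lay just below WT replicate 2. The means were 118 ± 43.1 CPM in Suz12 cKO and 41.1 ± 20.7 CPM in WT (SD, n = 3 and n = 4), for a log2 fold change of 1.52 (SE 0.37, interval 0.68 to 2.36, edgeR adjusted p = 0.0347).

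Cish levels went with the haemoglobin split as well as with genotype. The 3 libraries high in haemoglobin were also the 3 highest for Cish. This pattern was shown by 8.6% of all genes tested and by no other of the 9. The log2 fold change was 1.12 among the 4 low libraries, 1 Suz12 cKO against 3 WT (edgeR adjusted p = 0.0137). It was 0.99 among the 3 high ones, 2 Suz12 cKO against 1 WT (adjusted p = 0.006). Each of these fits has 1 library in an arm and takes its spread from the other arm. With a term for tissue RNA it was 1.07 (adjusted p = 0.00106). The call was kept without Suz12 cKO replicate 3 (adjusted p = 0.0278) and without WT replicate 2 (adjusted p = 0.00216). It was lost without Suz12 cKO replicate 1 or 2 or without WT replicate 1, 3 or 4, with log2 fold changes between 1.33 and 1.45 and adjusted p-values between 0.0889 and 0.125. Suz12 cKO replicates 1 and 2 and WT replicate 2, high in haemoglobin, were also the highest for Bhlhe40 and Egr2. Bhlhe40 was at 674, 635 and 994 CPM there, against 287 to 347 CPM elsewhere. Egr2 was at 688, 823 and 412 CPM there, against 131 to 317 CPM elsewhere. Which property of these libraries went with Cish was not tested.

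Relative to its inducers, Cish per length over the sum of Stat5a and Stat5b was 1.39, 1.56 and 0.711 in Suz12 cKO and 0.303, 0.796, 0.287 and 0.341 in WT. The mean log2 ratio was 0.21 ± 0.61 in Suz12 cKO and -1.35 ± 0.69 in WT, a difference of 1.56 (two-sided exact permutation p = 0.114). It did not pass, and adjusted over the 4 ratios the exact permutation p was 0.228. The fourth ratio, Stat5a to Stat5b, differed by -0.03 between the genotypes (exact permutation p = 0.686).

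**Figure D4:**
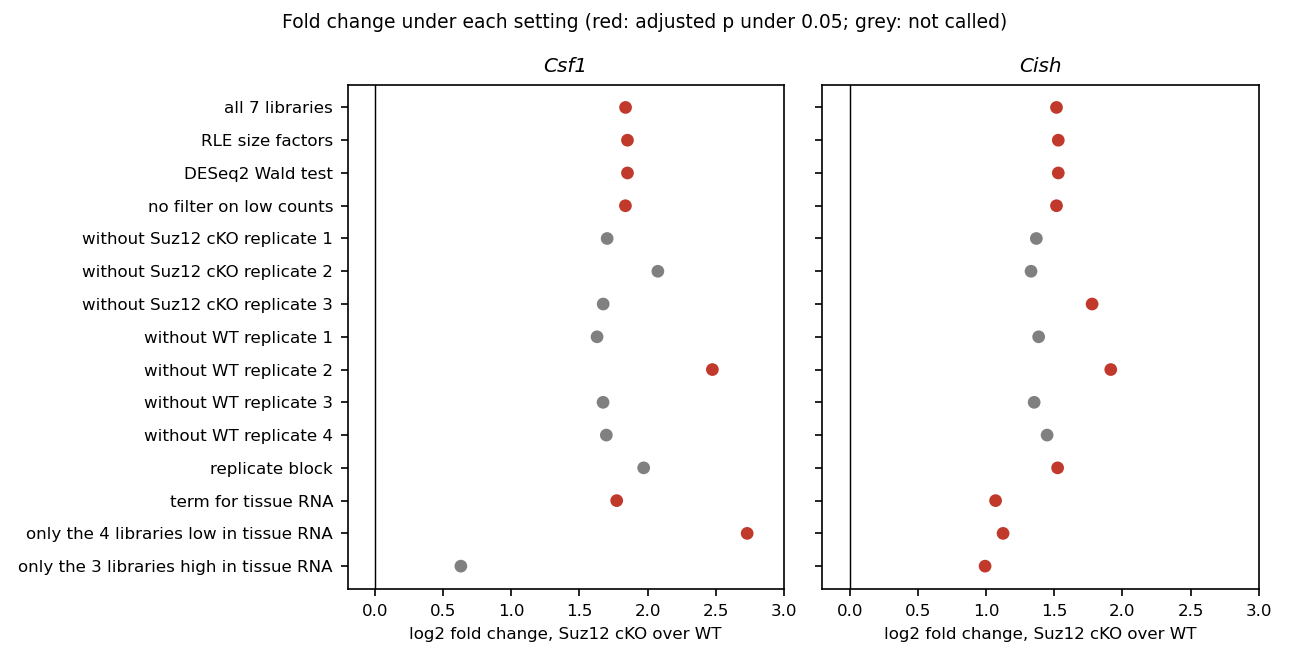
Log2 fold change of Suz12 cKO over WT for Csf1 (left) and Cish (right) with all 7 libraries and under 14 alternatives, red where the adjusted p was under 0.05. Csf1 lies between 0.63 and 2.73 and Cish between 0.99 and 1.92; Csf1 was called in 6 of 14 alternatives and Cish in 9.

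The genes also differed in how much they varied. Over the 7 libraries the coefficient of variation was 76.3% for Csf1 and 67.7% for Cish, against a median of 21.5% over all genes tested. Jak2 came next at 19.0%, then Csf2ra at 13.5%, Csf2rb2 at 11.0% and Csf1r at 8.28%. Stat5a, Csf2rb and Stat5b varied least, at 7.46%, 5.83% and 5.47%. These figures pool both genotypes, so those of Csf1 and Cish include the genotype difference. Within a group the coefficient was 31.1% in Suz12 cKO and 72.8% in WT for Csf1. For Cish it was 36.6% in Suz12 cKO and 50.4% in WT.

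Genes that followed Csf1 and Cish most closely over the 7 libraries were found from the root mean square difference of log2 CPM, centred on each gene, among 12130 genes. Nearest to Csf1 were Rasgrp1, a Ras activator (difference 0.266), the peptidase gene Cpq (0.319) and Zc3h12c, of a family of RNA-degrading proteins (0.333). Rasgrp1 was at 17.2, 17.9 and 23.6 CPM in Suz12 cKO, against 3.09, 10.1, 4.19 and 4.04 CPM in WT. All 3 were called higher in Suz12 cKO, with edgeR adjusted p = 0.0182 for Rasgrp1, 0.01 for Cpq and 0.0468 for Zc3h12c.

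Nearest to Cish were the early growth response gene Egr2 (0.187), Smad7, an inhibitor of TGF-beta signalling (0.222), and the cell cycle inhibitor gene Cdkn1a (0.24). Egr2 was at 688, 823 and 317 CPM in Suz12 cKO, against 174, 412, 131 and 144 CPM in WT. None of these 3 was called, though their log2 fold changes lay near that of Cish, 1.52. These were 1.5 for Egr2 (edgeR adjusted p = 0.065), 1.17 for Smad7 (0.139) and 1.33 for Cdkn1a (0.0846). The likeness was computed over both genotypes together, so the genotype difference is part of it.

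Related ligand genes were near absent, and 1 related receptor gene was called. Il3 and Il5 had no count in any library, Csf3 had counts in Suz12 cKO replicate 2 alone, and Il34, the second ligand of the M-CSF receptor, had at most 5 counts in a library. Of 2 related receptor genes tested, Csf3r, the G-CSF receptor, was called higher, at 58.6, 75.0 and 53.4 CPM in Suz12 cKO, against 41.5, 32.2, 46.4 and 44.2 CPM in WT (log2 fold change 0.60, edgeR adjusted p = 0.0438). Il3ra had a log2 fold change of 0.76 (adjusted p = 0.136). Csf3r is also a neutrophil gene, and 3 of the 4 neutrophil markers tested were called higher; their sum lay between 59.2 and 99.8 CPM in Suz12 cKO and between 12.1 and 25.5 CPM in WT, with Ly6g and Camp at 0 in all libraries. The part of neutrophil RNA in Csf3r was not tested.

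Of 8 other JAK and STAT genes, 1 was called higher and none lower, with a median log2 fold change of 0.01. Jak3, the kinase of receptors that use the common gamma chain, was at 61.6, 72.3 and 59.2 CPM in Suz12 cKO, against 41.0, 40.0, 30.1 and 45.3 CPM in WT, without overlap (0.72, edgeR adjusted p = 0.0158). Jak1, Stat3 and Stat6, the most abundant of the rest, had log2 fold changes of 0.18, 0.14 and -0.13 and were not called.

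Of 17 other negative regulators of cytokine receptors, edgeR called 1 higher and none lower, with a median log2 fold change of 0.11. This was Socs5, a suppressor of cytokine signalling, at 39.9, 39.8 and 42.1 CPM in Suz12 cKO, against 33.4, 26.7, 24.6 and 29.0 CPM in WT (0.51, edgeR adjusted p = 0.0316). The phosphatase genes Ptpn6, Ptpn1 and Inpp5d had log2 fold changes of -0.30, -0.02 and -0.13 and were not called by edgeR. Ptpn6 was called lower by DESeq2 (adjusted p = 0.0231) and by edgeR without WT replicate 2 (adjusted p = 0.0268).

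Of 16 genes known as targets of GM-CSF or STAT5, 2 were called higher and 1 lower, and the median was 0.34. The cyclin gene Ccnd2 was at 502, 507 and 429 CPM in Suz12 cKO, against 114, 173, 105 and 89.6 CPM in WT (1.99, edgeR adjusted p = 0.00105). Ccnd1 had a log2 fold change of 1.59 (adjusted p = 0.0175), and Myc, the growth regulator, one of -0.93 (adjusted p = 0.025). The 3 libraries high in tissue RNA were the 3 highest for 7 of these 16 genes, a pattern that 8.6% of all genes tested showed. Mcl1, Bhlhe40 and Spi1, the most abundant of the uncalled, had log2 fold changes of 0.03, 0.20 and -0.04.

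Of 26 genes of M-CSF receptor signalling, 2 were called higher and 1 lower, with a median of 0.04. Src, a kinase recruited by the activated receptor, was at 39.5, 48.5 and 65.8 CPM in Suz12 cKO, against 8.64, 12.0, 4.02 and 5.22 CPM in WT (2.78, edgeR adjusted p = 0.00264). Fos, Tyrobp and Fgr, the most abundant of those edgeR did not call, had log2 fold changes of 0.27, -0.33 and -0.30. DESeq2 called Tyrobp and Fgr lower (adjusted p = 0.0423 and 0.00628). Without WT replicate 2, edgeR called Fgr lower (adjusted p = 0.0263) and Fos higher (0.84, adjusted p = 0.00435).

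Markers of monocytes and interstitial macrophages summed to between 277 and 494.5 CPM in Suz12 cKO and between 205 and 395 CPM in WT, and their part in these lists was not tested. Over the 5 related lists, edgeR called 7 of 69 tested genes higher and 2 lower, beside 6.28% higher and 4.02% lower of all genes tested. DESeq2 called 9 higher and 7 lower. The calls moved with the libraries: without WT replicate 2 they were 20 higher and 6 lower, and without Suz12 cKO replicate 2 they were 3 higher and 0 lower. Ccnd2 and Src kept their calls in every alternative run. Jak3 lost its call without Suz12 cKO replicate 2 (edgeR adjusted p = 0.0739) and among the 4 libraries low in tissue RNA (adjusted p = 0.157), and Ccnd1 lost it without Suz12 cKO replicate 3 or WT replicate 1, 3 or 4 (adjusted p between 0.0524 and 0.059). Among the 3 libraries high in tissue RNA the log2 fold change of Ccnd1 was 0.57 (adjusted p = 0.233), and that of Myc was -0.41 (adjusted p = 0.317). Myc and Socs5 lost theirs without any Suz12 cKO library or WT replicate 3 or 4 (0.052 to 0.0835 for Myc, 0.0632 to 0.0912 for Socs5), and Socs5 also within the low and the high libraries (0.153 and 0.114). Csf3r lost it without any one library other than WT replicate 2 (0.0552 to 0.165). Its log2 fold change was 0.26 among the low libraries (adjusted p = 0.34) and 1.06 among the high ones (adjusted p = 0.0167), and with the tissue RNA term the adjusted p was 0.0521.

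**Figure D5:**
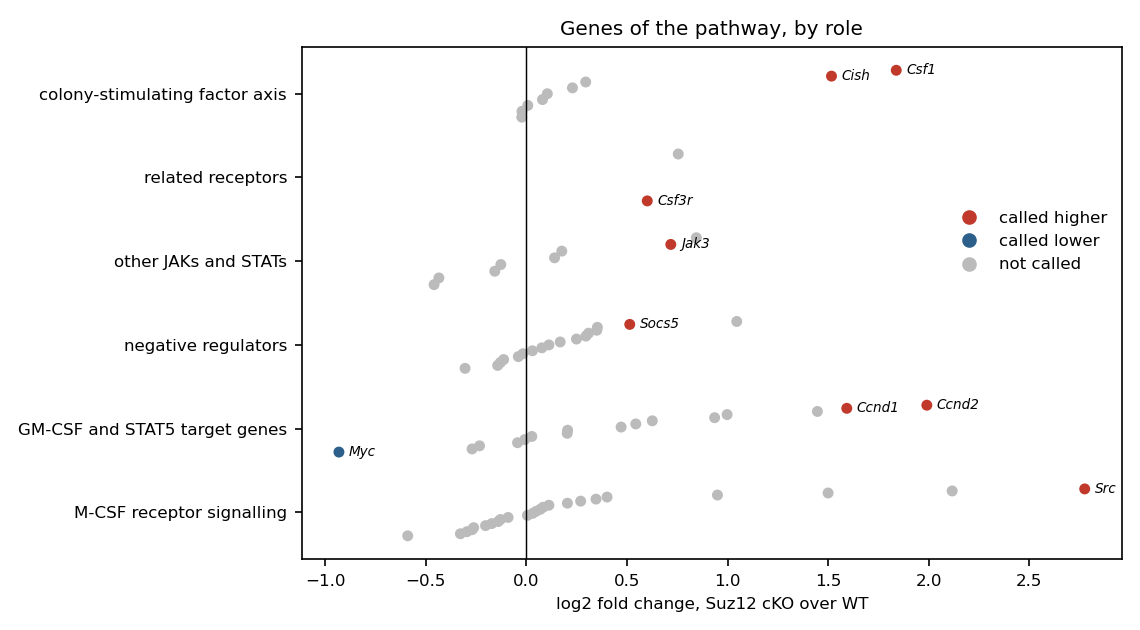
Log2 fold change of Suz12 cKO over WT for tested genes of the colony-stimulating factor axis and of 5 related lists, one row per list, with genes called at an adjusted p under 0.05 in red (higher) or blue (lower) and named. Src (2.78) and Ccnd2 (1.99) have the largest called fold changes outside the axis, and Csf3r and Il3ra, the 2 related receptors tested, lie at 0.60 and 0.76.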

How the data were processed

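The authors deposited raw counts per gene, obtained with featureCounts on mm10, per the submitters' processing notes; no source used here gives the aligner, annotation or strand setting. Per the labels' protocols, TruSeq libraries of polyA RNA were sequenced single-end at 85 bp. The 14 to 20 M reads stated per sample are fewer than the counts deposited, and no source used here gives the reason. The design text calls the samples biological replicates. No library was a copy of another. The 7 single-sample files equal the series table, and 0 columns were left unused.

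Symbols and positions came from RefSeq (GRCm38.p6) by Entrez number for 25275 of 27179 genes; 0.829% of the counts were in unmatched genes. The filterByExpr filter (minimum count 10, total 15) kept 14436 genes with 99.98% of the counts. These were scaled with TMM and compared with edgeR 4.0.16 (R 4.3.3, quasi-likelihood test, genotype as the sole term), Benjamini-Hochberg adjusted over all genes tested and called under 0.05. The SE is the log2 fold change divided by the square root of F. CPM and RPKM use TMM scaling and the deposited gene lengths; the haemoglobin sum (Hba-a1, Hba-a2, Hbb-bs) marks a library as high in tissue RNA above 20 CPM, with Sftpc above 1 CPM. Ratios were compared by exact permutation of the libraries. Floors of 3 counts cover only counting error in the group without counts, since PCR copies are not separate molecules. Alternatives were DESeq2 1.42.0, RLE size factors, no count filter, a replicate block, tissue RNA subsets or term, and leaving out each library.

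Genes named outside the 10 are, of each related list, those called and up to 3 uncalled by level, and the 3 genes most like each called gene. Under this rule 2 further genes were called that are left out here. The members, the lists and the split by tissue RNA were chosen with earlier results of these data known.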

Additional observations from a re-analysis of the deposited data

Results flagged for a closer look

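WT replicate 2 stood far above the other WT libraries for Csf1, at 11.59 CPM against 2.97 to 3.98 CPM, while the Suz12 cKO libraries lay between 12.7 and 23.8 CPM. Its gap to the nearest WT library was 0.883 of the WT range, over Dixon's critical value for 4 samples. This test flags about 1 in 20 groups by chance. It was run on the WT libraries of each of the 9 genes tested, and no other value passed. The same library was high in haemoglobin and Sftpc, and the part of that in Csf1 was not tested.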

How the results depend on the processing

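Csf1 and Cish kept their direction in every alternative run, but their calls were fragile to the choice of libraries, and the cause was not tested. Leaving out 1 library gave 0 to 2 called members, and over all genes 447 to 1515 higher and 268 to 885 lower. DESeq2 gave 1393 higher over all genes. Libraries of the same replicate number across the groups had correlations of -0.04, 0.24 and 0.16 in their deviations from the group means. Libraries of unlike number were not compared, so pairing by number was not tested. With the replicate block 1 member was called higher. Csf1 had an edgeR adjusted p of 0.112 and Cish 0.0169, and 585 genes were higher and 278 lower. Among the 4 libraries low in tissue RNA 367 genes were lower and the log2 ratio of Csf2rb2 to Csf2rb differed by 0.247; among the 3 high ones 1 member was called and 328 genes were lower.

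Signs that turned were those of values near 0 with all 7 libraries or of genes highest in the libraries high in haemoglobin RNA. Jak2, at 0.08 with all 7 libraries, was not near 0 in either subset, at 0.509 among the low libraries and -0.322 among the high ones. Its highest level was in Suz12 cKO replicate 3, which was low in haemoglobin. With the block, log2 fold changes were 0.008 for Csf1r, 0.031 for Stat5a, -0.005 for Mcl1 and 0.013 for Spi1. With the tissue RNA term they were 0.021 for Csf1r, 0.034 for Stat5a, 0.008 for Ptpn1, -0.144 for Mcl1 and -0.188 for Bhlhe40. Among the low libraries they were 0.002 for Stat5a, -0.153 for Stat5b and 0.111 for Ptpn1. Among the high ones they were 0.035 for Csf1r, -0.322 for Jak2, 0.054 for Stat5a, -0.008 for Stat3, 0.042 for Stat6, -0.523 for Mcl1, -0.601 for Bhlhe40, 0.013 for Spi1 and -0.625 for Fos. Mcl1, Bhlhe40 and Fos were called lower there (adjusted p = 0.0211, 0.0157 and 0.0247). Fos was called higher among the low libraries (0.614, adjusted p = 0.0496), and without WT replicate 2 Fos and Bhlhe40 were (0.837 and 0.832, adjusted p = 0.00435 and 0.0302). With the block the calls of Csf3r, Socs5, Ccnd1 and Myc were lost (adjusted p = 0.129, 0.0952, 0.0683 and 0.0948). With 1 library left out, log2 fold changes ran from -0.078 to 0.028 for Csf1r, -0.177 to 0.189 for Jak2, -0.077 to 0.043 for Stat5a, -0.038 to 0.046 for Stat5b, -0.101 to 0.035 for Ptpn1, -0.087 to 0.29 for Mcl1 and -0.092 to 0.013 for Spi1. The log2 ratio of Stat5a to Stat5b differed by -0.124 to 0.071 with 1 library left out and by 0.157 among the low libraries. Of 126 values for the 9 members tested, 93 kept side and direction, 13 lost the call, 1 gained it and 19 turned sign. Depth limits Csf2 alone among the members.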
